A study of Homo sapiens with 2 samples.

Results

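To describe where MTR4 was called on the imprinted SNHG14 locus of chromosome 15q11, the peaks listed over 4 genes were examined: SNHG14, SNRPN, SNURF and UBE3A. A peak was taken when it shared at least 1 base with the annotated span of any of these genes. This gave 22 of the 3304 listed positions, all of them in SNHG14. The members were selected on the listed peak positions, and the locus was picked for the number of peaks it holds. Its peak count and density are therefore given as a description. The list comes from RNA immunoprecipitation followed by sequencing (RIP-seq) in PLC/PRF5 cells, an established human hepatocellular carcinoma line. The cells overexpressed MTR4 with an HA tag from a pcDNA3 plasmid, and RNA was recovered from sonicated nuclear lysate with an antibody against HA. The other library of the study used IgG, and its label also calls it an input. Each antibody has 1 library, so no value below has a replicate and no difference between antibodies was tested. The list was treated as that of the HA library, although its single score column names no sample.

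Each listed peak is 400 bases wide and carries a score, which was 60 at all 22 peaks of the locus and therefore does not rank them. No read count or enrichment stands beside a peak, so the depth is unknown, and peaks of the IgG library were not analysed here. Strand was listed as + throughout and was not used. On chromosome 15, distances between the starts of neighbouring peaks were multiples of 105 bases in all 817 cases, the 21 distances of the locus included. Peak edges are therefore no finer than this grid.

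MTR4 is an RNA helicase that unwinds transcripts in the nucleus and passes them to the exosome, a protein complex that shortens RNA from its 3' end. SNHG14 is a long noncoding transcript made from the paternal chromosome. Its introns carry the SNORD116 and SNORD115 families of small nucleolar RNAs (snoRNAs), which are released when the host transcript is spliced and trimmed, and its far end runs antisense to the ubiquitin ligase gene UBE3A. Box C/D snoRNAs are defined by a C box near the 5' end and a D box near the 3' end. Loss of the paternal SNORD116 region is linked to Prader-Willi syndrome, and loss of maternal UBE3A to Angelman syndrome.

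Peaks shared bases with 3 annotated snoRNA genes, all in the SNORD116 family, and with 1 unannotated SNORD116-like copy. Their sequences are shown because they are the snoRNAs that peaks reached. They were read from the + strand of GRCh37, 5' to 3'. Capitals mark the first TGATGA, the letters of the C box, and the last CTGA, the letters of the D box. SNORD116-16 and the copy also hold an earlier CTGA, which is not in capitals. In SNORD116-10 the letters TGATGA occur at overlapping places, and the first is in capitals. The later one is preceded by a and followed by ctt, as are the marked C boxes of the other sequences. The capitals in SNORD116-10 need therefore not be its C box. The genes lie at chr15:25319261-25319362 (SNORD116-10), chr15:25321076-25321167 (SNORD116-11) and chr15:25327915-25328006 (SNORD116-16), and the copy at chr15:25333951-25334042.
SNORD116-10: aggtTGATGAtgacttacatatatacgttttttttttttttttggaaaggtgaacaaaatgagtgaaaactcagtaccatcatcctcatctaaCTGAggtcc
SNORD116-11: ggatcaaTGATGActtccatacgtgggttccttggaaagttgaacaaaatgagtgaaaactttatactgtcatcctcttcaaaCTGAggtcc
SNORD116-16: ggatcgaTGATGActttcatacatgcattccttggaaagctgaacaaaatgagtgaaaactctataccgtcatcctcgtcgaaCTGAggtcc
SNORD116-like copy: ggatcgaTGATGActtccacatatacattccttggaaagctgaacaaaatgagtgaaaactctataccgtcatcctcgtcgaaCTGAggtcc
SNORD116-11 and SNORD116-16 were 89.1% identical, whereas SNORD116-10 shared 72.5% and 75.5% of its aligned bases with them. The copy was 95.7% identical to SNORD116-16. Of the 25 annotated SNORD116 genes, 24 held both boxes in these letters.

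Peak 1761 is shown because a host exon, the start of the next intron and most of a snoRNA fall inside the same 400 bases. The stretch below runs from the first exon base to the end of the peak, chr15:25320882-25321161 on the + strand of GRCh37. Capitals mark the host exon, and the lower-case bases after it hold 62 bases of intron followed by the first 86 of the 92 bases of SNORD116-11.
Peak 1761: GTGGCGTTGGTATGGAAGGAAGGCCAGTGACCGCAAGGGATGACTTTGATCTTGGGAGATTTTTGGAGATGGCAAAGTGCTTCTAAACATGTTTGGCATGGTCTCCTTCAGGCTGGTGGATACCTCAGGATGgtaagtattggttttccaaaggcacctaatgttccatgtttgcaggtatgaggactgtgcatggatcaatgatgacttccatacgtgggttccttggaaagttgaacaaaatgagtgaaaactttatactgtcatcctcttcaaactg

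The peaks were unevenly spread along SNHG14. The gene (ENSG00000224078, chr15:25223730-25665483 on the + strand of hg19) spans 442 kb with 142 annotated transcripts. Exons of any transcript, here and below those of any gene on either strand, cover 32.8% of the bases of SNHG14. The first peak lay 23322 bases from its start, and the first 20 peaks fell in 118 kb. The SNORD116 cluster, taken from the first to the last annotated SNORD116 gene, held 11 peaks in 56.9 kb, or 19.3 per 100 kb. The part of SNHG14 before it held 8 peaks in 72.9 kb, or 11 per 100 kb.

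Downstream of the SNORD116 cluster few peaks were listed. The 50.9 kb between the clusters held 1 peak, and the 111 kb of the SNORD115 cluster held 0 although 45 snoRNA genes are annotated there. No peak was listed in the 63.9 kb between SNORD115 and UBE3A. The 86.6 kb in which SNHG14 lies opposite UBE3A held 2 peaks, or 2.31 per 100 kb. A stretch of 234 kb without a peak, with 46 annotated snoRNA genes, thus separated Peak 1770 from Peak 1772. The list does not show whether RNA was present over stretches without a peak, so little RNA and little MTR4 on it cannot be told apart.

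**Figure D1:**
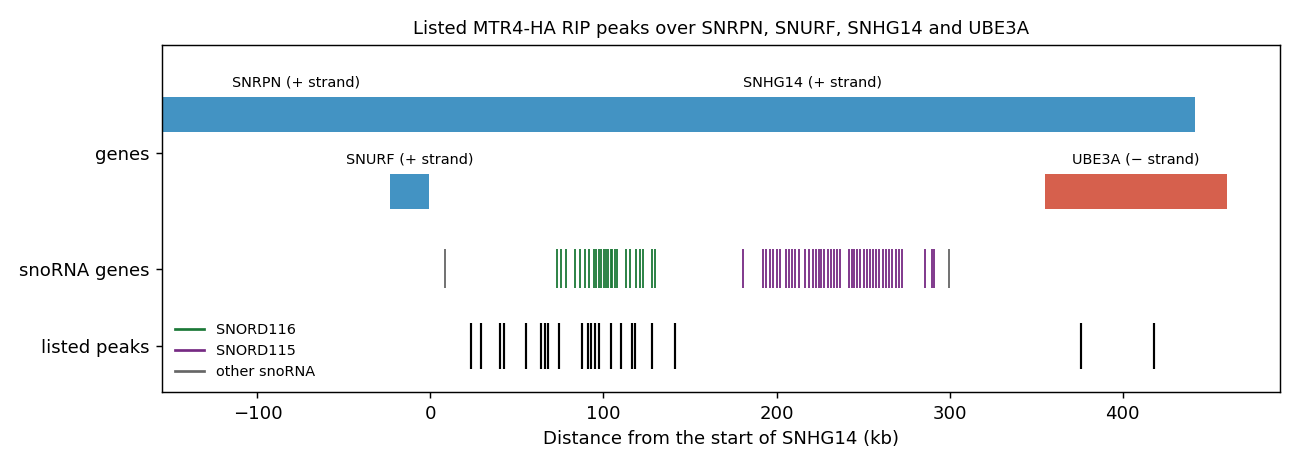
Map of the locus with distance from the start of SNHG14 in kb on the horizontal axis; blue bars are genes on the + strand, the red bar is UBE3A on the − strand, coloured ticks are snoRNA genes and black ticks are midpoints of the 22 listed peaks. The first 20 peaks lie before and within the SNORD116 cluster and just after it, and 2 lie opposite UBE3A.

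Sequence uniqueness and annotation were set beside these counts, since repeated sequence can limit where a read is placed. Every stretch of 50 bases was looked up in GRCh37 on both strands. In the SNORD116 cluster 97% of such words occurred once, against 93.3% in the SNORD115 cluster and 92.3% between SNORD115 and UBE3A. Exons of any transcript covered 52.9% of the bases in the SNORD116 cluster, 56.7% between the clusters and 21.1% in the SNORD115 cluster. The number of annotated SNHG14 transcripts varied too: 22 reach into the part before the SNORD116 cluster, 89 into the cluster, 76 into the part between the clusters and 41 into the SNORD115 cluster. The part of these differences in the peak counts was not tested.

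**Figure D2:**
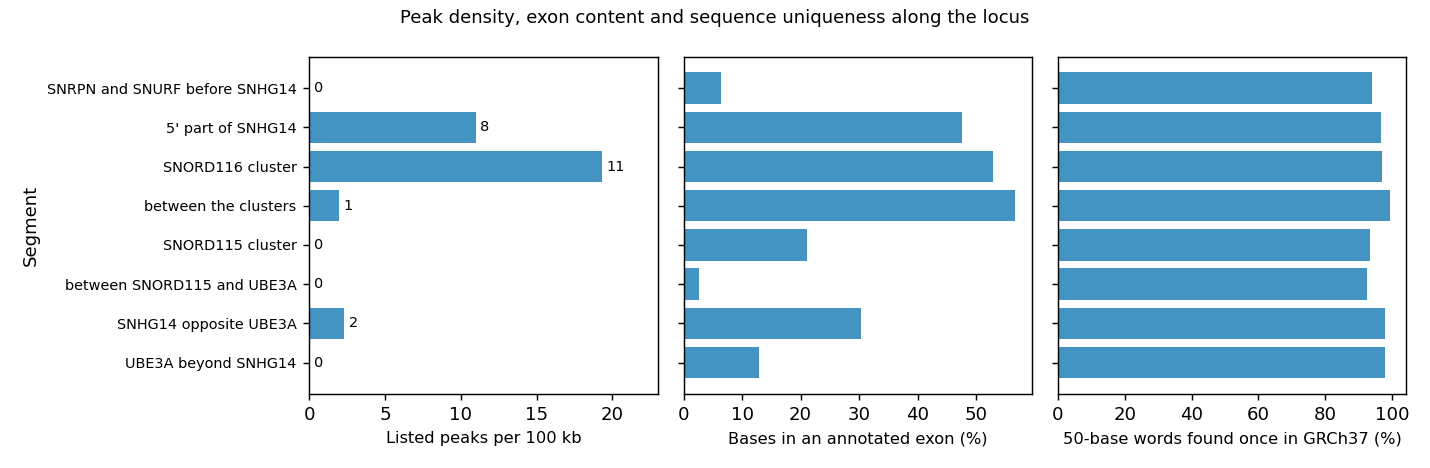
Bars give, for each segment of the locus from the SNRPN side at the top to the UBE3A side at the bottom, listed peaks per 100 kb (left, with the number of peaks written beside each bar), the percent of bases in an annotated exon (middle) and the percent of 50-base words found once in GRCh37 (right). Peak density was highest in the SNORD116 cluster at 19.3 per 100 kb, while uniqueness lay between 92.3% and 99.2% in every segment.

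SNRPN and SNURF had no listed peak. SNRPN (ENSG00000128739, chr15:25068784-25223870, + strand) encodes a spliceosomal Sm protein, and SNURF (ENSG00000273173, chr15:25200134-25222997, + strand) encodes a small protein from a reading frame upstream of that of SNRPN. The 155 kb before the start of SNHG14 held 0 peaks, with 93.8% of its 50-base words unique and 6.35% of its bases exonic. UBE3A (ENSG00000114062, chr15:25578875-25684198, − strand) had 2 peaks, and both also lay in SNHG14 on the other strand. The 18.7 kb of UBE3A beyond SNHG14 held 0. Without strand, SNHG14 RNA and UBE3A RNA cannot be told apart at these 2 peaks.

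The 8 peaks before the SNORD116 cluster lay at chr15:25247052-25291971 and varied in GC. Their GC content ranged from 31.8% to 49.8% with a median of 36.8%. At 5 of the 8 an annotated SNHG14 exon covered the midpoint. Peak 1753 had the broadest exon annotation among them, with an exon in 8 of the 10 transcripts that pass its midpoint. Peak 1752 lay in PWAR6, a noncoding RNA gene inside SNHG14, and in an exon of 1 of 2 SNHG14 transcripts there. Peaks 1748, 1754 and 1755 were intronic, with 0 exonic bases. Their midpoints lay 4885, 1613 and 3713 bases from the nearest SNHG14 exon. No snoRNA gene lay within 1000 bases of any of these 8 peaks.

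Among the 11 peaks of the SNORD116 cluster, those on its upstream side had no exon of any transcript at the midpoint, and those after had one. Peaks 1756, 1757, 1758 and 1759 were intronic with 0 exonic bases. The 7 peaks from Peak 1760 to Peak 1768 all had an exon of some transcript at the midpoint. Only at Peaks 1760 and 1761 did most SNHG14 transcripts over the midpoint have an exon there. The others had one in 2 of 40 (Peak 1763), 1 of 44 (1764), 5 of 57 (1765), 5 of 63 (1766) and 1 of 73 (1768). Annotated SNHG14 transcripts over the midpoint numbered 15 at Peak 1756 and 73 at Peak 1768, and the part of this in the pattern was not tested. GC content in the cluster ranged from 37.8% to 53.5% with a median of 48.8%, and the range overlaps that of the 8 peaks before it.

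Peaks 1760 and 1761 lay over the host exons that most transcripts use. At Peak 1760 the exon chr15:25319039-25319198, 160 bases long, was shared by 23 of 23 SNHG14 transcripts over the midpoint. It ends 62 bases before SNORD116-10, and the peak covered the first 11 of that snoRNA's 102 bases. At Peak 1761 an exon covered the midpoint in 24 of 24 transcripts, and 23 of them used chr15:25320882-25321013, which ends 62 bases before SNORD116-11. Both peaks thus held bases of the intron before the exon and the whole exon. They also held the first bases of the intron after it and the 5' part of the snoRNA in that intron. No read-level data were used here, so spliced and unspliced RNA cannot be told apart.

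Peak 1763 held all 92 bases of SNORD116-16. In 2 of the 40 transcripts over its midpoint an exon of 760 bases, chr15:25327915-25328674, begins at the first base of this snoRNA and ends 60 bases before SNORD116-17. The peak held 387 of these exon bases. Peak 1764 lay 2016 bases downstream of SNORD116-19, the nearest annotated snoRNA gene, yet held all 92 bases of the SNORD116-like copy printed above. An exon of 1 of 44 SNHG14 transcripts and the noncoding gene ENSG00000261069 also covered it.

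The other peaks of the cluster lay beside snoRNA genes without touching them. Peak 1757 lay 938 bases downstream of SNORD116-6 and Peak 1759 lay 888 bases downstream of SNORD116-8. Peak 1758 lay 402 bases upstream of SNORD116-8, and Peak 1756 lay 1048 bases downstream of SNORD116-1. Peaks 1765, 1766 and 1768 were 491 bases downstream of SNORD116-24, 438 bases upstream of SNORD116-25 and 91 bases downstream of SNORD116-29. These 3 peaks also lay in ENSG00000287482, an antisense noncoding gene. Counting the cluster as a whole, 3 peaks shared bases with a snoRNA gene, 6 lay downstream of the nearest one and 2 upstream.

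**Figure D3:**
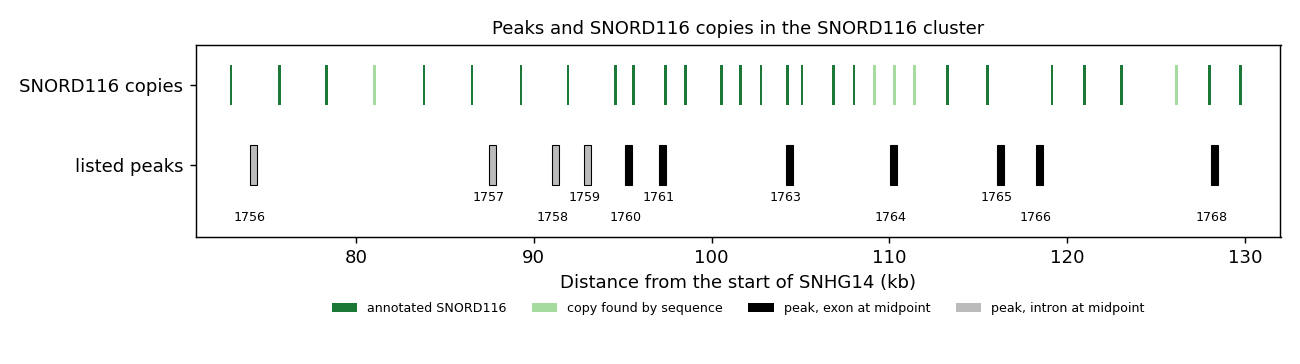
Annotated SNORD116 genes (dark green), SNORD116-like copies found by sequence (light green) and the 11 listed peaks of the cluster (boxes with their numbers) against distance from the start of SNHG14 in kb; tick and box positions are to scale, and tick widths are a minimum for visibility. Black boxes have an exon of any transcript at the midpoint and grey boxes do not: the 4 grey boxes are the first 4 peaks.

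Several peaks of the cluster lay on copies of the same repeat. The longest alignment was between Peaks 1757 and 1759, with 79.5% identity over 380 aligned bases, and both lay just under 1000 bases downstream of their snoRNA. Peak 1756 aligned with them at 74.8% over 282 columns and 80.3% over 244. Each of these 3 peaks matched 7 other places in the cluster over at least 200 bases, and peaks were listed at 2 of those 7. The remaining copies had no listed peak. All 50-base words inside these 3 peaks were unique in GRCh37.

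The first 120 columns of the alignment of Peaks 1757 and 1759 are printed to show how closely the repeat copies agree and where they part. The stretches are chr15:25311209-25311320 and chr15:25316584-25316703, both on the + strand of GRCh37. Capitals mark the 98 aligned bases that are identical, and 8 columns are gaps, which are closed up here.
Peak 1757: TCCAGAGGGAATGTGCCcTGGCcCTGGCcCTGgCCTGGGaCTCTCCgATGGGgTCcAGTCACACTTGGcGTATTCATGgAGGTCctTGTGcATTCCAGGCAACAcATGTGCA
Peak 1759: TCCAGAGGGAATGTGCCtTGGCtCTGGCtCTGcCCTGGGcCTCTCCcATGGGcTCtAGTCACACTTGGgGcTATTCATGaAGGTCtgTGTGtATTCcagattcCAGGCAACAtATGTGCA

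The 4 peaks that hold bases of a SNORD116 copy also aligned with others of the 4. Peaks 1760 and 1761 aligned at 75.2% identity over 149 columns, and Peaks 1763 and 1764 at 82.5% over 200 columns. Peak 1754, before the cluster, matched 36 other places in SNHG14 at 66.6% to 88.7% identity, and only 47.9% of its 50-base words were unique, the lowest value of the 22 peaks. Of the 22 peaks, 17 (77.3%) held no repeated 50-base word, against 2743 of 3303 positions (83%) on assembled chromosomes. The exceptions were Peaks 1747 (71.2% unique), 1754, 1763 (86.3%), 1764 (84.6%) and 1774 (98.0%).

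Peaks of the locus were then set against snoRNA genes in the whole list. Within 1000 bases of a snoRNA gene, edge to edge, lay 9 of the 22 peaks, or 40.9% (Wilson 95% interval 23.3 to 61.3, which covers counting error within the list only), against 0.636% of all 3303 positions. All 9 were in the SNORD116 cluster, where they made up 9 of 11 peaks (81.8%). Of all windows of 400 bases in that cluster, 81.4% lie this close to a snoRNA gene, so the share of peaks near a snoRNA was close to that of any window there. In the SNORD115 cluster 75.8% of windows lie this close, and 0 peaks were listed.

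Seen from the snoRNA genes, the SNORD116 and SNORD115 families stood apart. Of the 25 SNORD116 genes, 10 (40%) had a peak within 1000 bases, and the distance to the nearest peak ranged from 0 to 4350 bases with a median of 1173. For the 45 SNORD115 genes the distance ranged from 39316 to 116217 bases. SNORD108 lay 14909 bases from the nearest peak and SNORD109B 75875. On the 6 chromosomes that hold most of the list, 323 further snoRNA genes are annotated outside SNHG14. A peak lay within 1000 bases of 11 of them (3.41%) and shared bases with 2, SNORA6 and SNORD43. Since snoRNA genes of a cluster lie side by side, their distances are not independent. The locus was picked for its number of peaks, so the shares inside and outside SNHG14 are a description only.

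**Figure D4:**
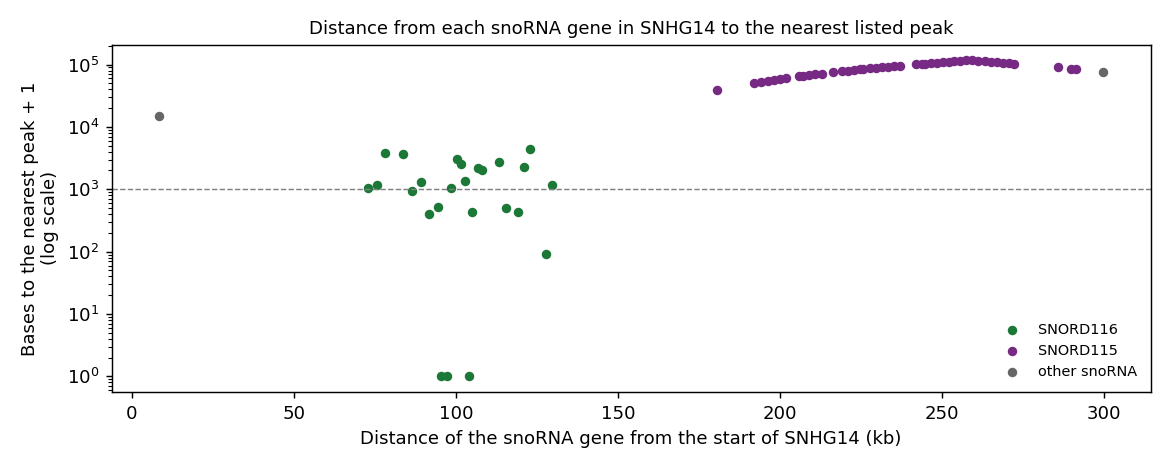
Each point is 1 of the 72 snoRNA genes annotated in SNHG14, placed by its distance from the start of SNHG14 in kb and, on a log axis, by the number of bases to the nearest listed peak plus 1; the dashed line marks 1000 bases. The 3 points at the bottom are the SNORD116 genes that share bases with a peak, and every SNORD115 gene lies at 39316 bases or more.

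Exons covered the midpoint of 13 of the 22 peaks, or 59.1% (Wilson 95% interval 38.7 to 76.7). Over all positions of the list this share was 49.0%, and on chromosome 15 it was 399 of 818 (48.8%, 45.4 to 52.2), inside the interval of the locus. Exons of any transcript take up 32.8% of SNHG14, but 47.6% of the part before the SNORD116 cluster, where 5 of 8 peaks (62.5%) were exonic, and 52.9% of the cluster, where 7 of 11 (63.6%) were. Of the 13 exonic peaks, 5 rested on an exon of 1 SNHG14 transcript, and at 5 others most transcripts over the midpoint had an exon there. At the 9 intronic peaks, 8 held no exonic base.

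Peak 1770, the only one between the clusters, lay at chr15:25364652-25365051 in an exon of 65 of the 66 transcripts over its midpoint. The exon most often used there, chr15:25364212-25367614, is 3403 bases long and occurs in 47 of them. The nearest snoRNA gene, SNORD116-30, lies 11152 bases before the peak.

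Both peaks opposite UBE3A were intronic for SNHG14. Peak 1772, at chr15:25599432-25599831, held 298 bases that are exonic in some UBE3A transcript. It covered exons 10 and 11 of the 13 exons of the canonical UBE3A transcript, chr15:25599675-25599830 and chr15:25599500-25599573, in full, with the 101 bases of intron between them. Both exons overlap annotated coding sequence. Its midpoint fell in that intron, 43 bases from an exon, so it was counted as intronic. Peak 1774, at chr15:25641642-25642041, lay in intron 4 of that transcript, 2835 bases from the nearest UBE3A exon, and held no exonic base. SNORD109B, the nearest snoRNA gene, lay 75875 bases from Peak 1772 and 118085 bases from Peak 1774.

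The sequence of the peaks was searched for the motifs the study named. The poly(A)-like motif, TAAAAA followed by A or T, A, A or C, A or T and AA, was found on the + strand, that of SNHG14, in 0 of the 22 peaks, against 2.82% of all positions on the strand of their gene and 3.62% of 1104 windows of 400 bases along SNHG14. On the − strand 3 peaks (13.6%) held it, against 2.90% of the SNHG14 windows and 3.66% of all positions on the strand opposite to their gene. With both strands together 3 peaks (13.6%) held it, against 6.42% of all positions. With 3 peaks these shares are coarse, and the differences were not tested. These are Peaks 1748 and 1754 before the cluster and Peak 1774 opposite UBE3A, whose − strand is that of UBE3A. For all positions the strand was that of the gene at the midpoint, with protein-coding genes taken first, or + without a gene. Under that rule Peaks 1772 and 1774 would be read on the strand of UBE3A, where Peak 1774 holds a match. Counts in the locus and shares over all positions, here and in the next paragraph, are therefore not fully alike. The matches in Peaks 1748 and 1774 are printed with 20 bases on either side, read from the − strand of GRCh37 with the motif in capitals, to show the A-rich run on the strand opposite SNHG14. They lie at chr15:25252841-25252892 and chr15:25641914-25641965.
Peak 1748: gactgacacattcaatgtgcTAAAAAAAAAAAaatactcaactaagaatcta
Peak 1774: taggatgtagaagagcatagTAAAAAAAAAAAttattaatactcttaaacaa

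The second motif, CCA followed by G, C or T and then C, was present on the + strand in 15 of the 22 peaks (68.2%). Over all positions it was present in 73.3%, and in 64.4% of the windows along SNHG14, so the share in the locus was near both. On the − strand 19 peaks (86.4%) held it, against 71.6% of the windows and 77.1% of all positions on the strand opposite to their gene. With both strands together it was in 95.5% of the peaks and 91.2% of all positions, so the motif is nearly everywhere. Read instead as CCAG followed by G, C or T and then C, it was in 7 peaks on the + strand (31.8%), against 43.1% of all positions and 36.5% of the windows. Runs of 8 T on the + strand occurred in 5 peaks (22.7%), against 10.9% of all positions and 8.70% of the SNHG14 windows, and runs of 8 A in 0, against 7.87% of all positions and 9.78% of the windows. The median GC content of the 22 peaks was 41.0%, against 44.5% in the list and 39.2% in the windows. A match is a count of letters and not a binding site.

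From a list of 24 genes of 15q11-q13, 21 were annotated under the name used, and 8 of these had a peak, against 16.2% of the 2399 annotated genes of chromosome 15. The list includes 7 genes inside or overlapping the locus, which was picked for its peaks. Of the 14 others, 5 (35.7%) had a peak. Long genes hold more positions than short ones, and this share was not adjusted for length. HERC2, a ubiquitin ligase gene at the distal end, had 14 peaks, CYFIP1 had 7, and NIPA1, TUBGCP5, MKRN3 and PWAR6 had 1 each, beside SNHG14 and UBE3A. MAGEL2, NDN and NPAP1 had 0, as did SNRPN, SNURF, PWAR5, PWAR1, NIPA2, ATP10A, OCA2 and the GABA receptor genes GABRA5 and GABRG3. No peak was listed in the 1.44 Mb before the first peak of the locus or in the 2.71 Mb after the last. The flanking peaks lay in MKRN3 and HERC2.

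The spacing and exon share of the peaks in SNHG14 were set beside those of other peak-rich genes. From one start to the next the median step was 5985 bases, with a range of 1785 to 234780, against 19740 on chromosome 15 and 24600 in the list. Because the locus was picked for its number of peaks, a shorter step follows from that choice and is a description only. FNDC3B, a protein-coding gene on chromosome 3, had 54 peaks at 14.9 per 100 kb, with a median distance of 4500 bases, and SNHG14 had 4.98 per 100 kb. At the midpoint 3 of the 54 FNDC3B peaks were exonic (5.56%, 1.91 to 15.1), and exons take up 4.26% of FNDC3B against 32.8% of SNHG14. The noncoding gene MIRLET7BHG had 5 peaks at 8.33 per 100 kb, of which 2 were exonic (40%, 11.8 to 76.9), and exons take up 17.4% of it. LINC02669 had 10 peaks at 14.2 per 100 kb, of which 0 were exonic (0 to 27.8%), and exons take up 11.3% of it. The difference between these genes was not tested.

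The running numbers of the peaks add 1 further fact. Peaks of the locus run from 1747 to 1774, which is 28 numbers, of which 22 (78.6%) are listed. Numbers 1751, 1762, 1767, 1769, 1771 and 1773 have no listed position, and where the peaks of those numbers lay was not analysed here. The listed peak before the locus on chromosome 15 was number 1744, so the numbering also had a gap there. The share of numbers listed over the whole list is not given, so these gaps cannot be called particular to the locus.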

How the data were processed

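PLC/PRF5 cells overexpressing MTR4-HA were used for RIP-seq, with 1 anti-HA and 1 IgG library, grouped by the antibody in the labels. The study's methods state that adapters were removed, that reads were aligned to hg19 with TopHat 2.0.13 and that peaks were called with RIPSeeker, whose settings were not given in the sources used here. The file analysed was the peak list as the authors deposited it, with a position, a running number and a score of unknown meaning for each peak. The deposited score took the values 60 and 1 (6 positions) and was not used to rank peaks. The depth of the libraries is unknown from this list.

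Positions, counted from 1, were compared with the GRCh37 sequence and with GENCODE release 44 mapped to GRCh37, in which some genes are carried over from release 19. Sequences were read with pysam 0.24.0. Shares over the list used the 3303 positions on assembled chromosomes and left out 1 on an unplaced scaffold, and their Wilson 95% intervals came from scipy 1.17.1 under Python 3.11.15. Copies of snoRNAs were sought with BLAST 2.17.0, at 80% identity and 80% coverage or more, and like peaks over at least 100 bases. Pairs of snoRNAs were aligned with Biopython 1.88. The interval and word-count code was checked on simulated data. Every value is a description of 1 list, and no test was run.

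The members, the 15q11-q13 gene list and the motifs were chosen with earlier results of these data known. The text names SNHG14, SNRPN, SNURF, UBE3A, the 15q11-q13 genes, annotated genes in SNHG14 that share a base with a peak, the snoRNA gene nearest to each peak, and FNDC3B, MIRLET7BHG and LINC02669 for comparison. SNORA6, SNORD43, SNORD108 and SNORD116-17 were added after their values were seen. Alternatives changed the overlap, the exon annotation, the distance to a snoRNA, the strand and the motif. A gene of the 15q11-q13 list and a sequence of a motif match are not reported here.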

Additional observations from a re-analysis of the deposited data

How the results depend on the processing

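Of 25 alternative values, 22 of them planned and 3 chosen after seeing the data, 20 stayed near the reported value and 5 moved. The count of 9 peaks at or near a snoRNA gene became 3 when a shared base was required, 7 within 500 bases, 10 within 2000 bases and 10 with snoRNA copies found by sequence included, an alternative chosen after seeing the data. The poly(A)-like motif, found in 0 peaks on the + strand, was found in 3 on the − strand and in 3 on both strands together. The second motif fell from 15 peaks to 7 when read as CCAG followed by G, C or T and then C. The 8 genes of the 15q11-q13 list with a peak became 5 without the genes of the locus, also chosen after seeing the data. The 22 peaks stayed 22 under every overlap rule tried, and with peaks within 1000 bases merged. The exonic share of 59.1% lay between 50% (exons of basic transcripts) and 63.6% (any base of the peak). Without the last 2 peaks the median spacing was 5880 bases, also chosen after seeing the data.

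No paired analysis was possible because the list gives no value for either library. With 1 library per antibody, no depth and no IgG peaks, the counts cannot show how far a peak stood above the control, and stretches without peaks cannot be read as unbound.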
